A study of Homo sapiens with 4 samples.

Results

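The stretch of chromosome 6 from 26200000 to 29000000 (hg19), in band 6p22, held 82 of the 862 regions at which HA-tagged SOX4 was called on chromatin. The members were chosen by the peak calls and their position. Every peak of the 3 deposited lists that touched this window was pooled, and peaks overlapping by at least 1 bp were merged into a region, whether it came from 1, 2 or 3 lists. This gave 204 of the 1558 peaks of the series, 74 from immunoprecipitation (IP) 1, 71 from IP 2 and 59 from IP 3, and no region held more than 1 peak of a list. The window was drawn where peaks found in every list gather, so the number of regions in it and their presence in several lists are given as a description and support nothing.

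The cells were U251, an established human glioblastoma line, and all 4 samples of the series, the input included, overexpressed SOX4 with an HA epitope tag and were taken 3 days after infection with virus. Chromatin was sheared and immunoprecipitated with an antibody to the tag in 3 separate immunoprecipitations, and 1 input served all 3 peak calls. The enrichment therefore reports SOX4 supplied from a virus, read through its tag, and each comparison with unprecipitated chromatin is the one made inside the authors' peak call. The libraries held 24037735, 23683012 and 19228143 tags in IP 1, IP 2 and IP 3, against 28755427 in the input. IP 3, the shallowest, had the fewest peaks.

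SOX4 belongs to the HMG-box transcription factors, which bind the minor groove of DNA and bend it. The short arm of chromosome 6 is known for its large assembly of transfer RNA (tRNA) genes, short genes transcribed by RNA polymerase III from a promoter inside the transcribed sequence, which is bound by the factor TFIIIC. The assembly is interleaved with the major cluster of replication-dependent histone genes, whose products package newly made DNA. The title of the series names the repression of specific tRNA genes by SOX4.

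In the gene order of the RefSeq table on assembly GRCh38.p14, 144 of the 155 tRNA genes of chromosome 6 form the assembly, from TRX-CAT1-2 to TRL-AAG3-1. A block of 47 tRNA genes is followed by 5 histone genes (H2BC11 to H2AC12), 51 tRNA genes, 16 histone genes (H2BC13 to H2BC17) and a last block of 46 tRNA genes. By the letter of the amino acid in their symbols, 22 of the 144 are alanine tRNA genes, 17 serine, 13 isoleucine and 11 arginine, and 14 of the alanine genes share the anticodon AGC. Many tRNA genes have near-identical copies, so peaks at them can be lost or misplaced in short-read alignments. Gene positions and sequence on hg19 were not used here. No region was therefore placed at a tRNA or histone gene, the name of the stretch was not checked against genes, and no sequence is printed.

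Regions were numbered from 1 to 82 along the chromosome. The first began at 26286656 and the last ended at 28950155, a span of 2.66 Mb. They lay at 29.3 regions per Mb of the window, against 0.289 per Mb in the rest of the effective genome of 2.7e+09 bp. The window is 0.104% of that genome and held 11.8% of the peaks of IP 1, 13.5% of IP 2 and 14.5% of IP 3. The regions themselves were narrow, from 163 to 466 bp with a median of 262.5 bp, and covered 21.6 kb or 0.771% of the window. The window's edges fell in empty sequence. The last region before it ended 1533 kb upstream of the edge and had a fold of 5.26 in IP 2 alone. Region 1, the first inside, lay 86.7 kb past the edge. Region 82, the last inside, lay 49.8 kb before the other edge. The next region beyond it lay 731 kb away, with folds of 4.25 in IP 1 and 4.83 in IP 3.

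Spacing within the stretch was very uneven. The 81 gaps between neighbouring regions ran from 174 bp to 487 kb with a median of 9.78 kb. Of these, 17 were of 1 kb or less, 24 between 1 and 10 kb, 30 between 10 and 50 kb and 10 longer than 50 kb. Joining regions no more than 50 kb apart gave 11 sub-clusters. The 5 of them with 5 or more regions held 72 of the 82 regions (87.8%) on 803 kb, which is 28.7% of the window. Of the others, 3 were single regions and 3 held 2 or 3 regions.

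**Figure D1:**
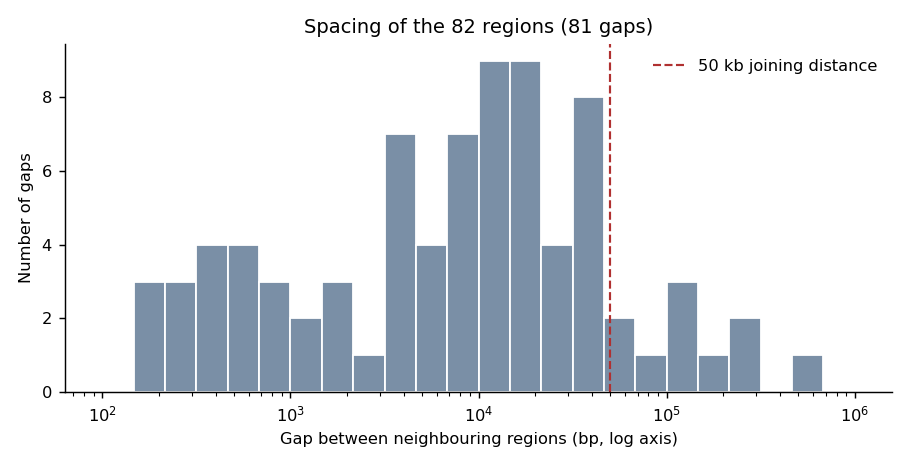
Lengths of the 81 gaps between neighbouring regions on a log axis in bp, as numbers of gaps per bin, with the joining distance of 50 kb as a dashed line. Gaps run from 174 bp to 487 kb, and 10 lie beyond the line.

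Sub-clusters 1 and 2, at the start of the stretch, were the densest of the 5 large ones. Sub-cluster 1 had 11 regions on 45.1 kb (26286656 to 26331800) and sub-cluster 2 had 11 on 50.9 kb (26521388 to 26572276), which is 24.4 and 21.6 regions per 100 kb. Each had 7 regions of all 3 lists, 1 of 2 lists and 3 of a single list. The emptiest part of the stretch followed, 487 kb to the single region 23.

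The middle of the stretch was sparser. Sub-cluster 5 held 5 regions on 97.8 kb (27203167 to 27300925), and sub-cluster 6 held 17 on 216 kb (27440466 to 27656191), of which 13 were found in every list. Between 27763781 and 28557080 there were 5 regions, and 1 of them was found in all 3 lists. These 5 were regions 50 and 51, which lay 174 bp apart, regions 52 and 53, 12.0 kb apart, and region 54 alone. Region 54 (28321986 to 28322209), the only member of sub-cluster 10, had a peak in IP 2 alone, with a fold of 6.06.

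Sub-cluster 11 closed the stretch and was the largest, with 28 regions on 393 kb (28557080 to 28950155). It held 19 regions of all 3 lists and 9 of 2 lists, and no region of a single list. In 8 of those 9, IP 3 was the list without a peak. Its density, 7.12 regions per 100 kb, was close to the 7.88 of sub-cluster 6.

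**Figure D2:**
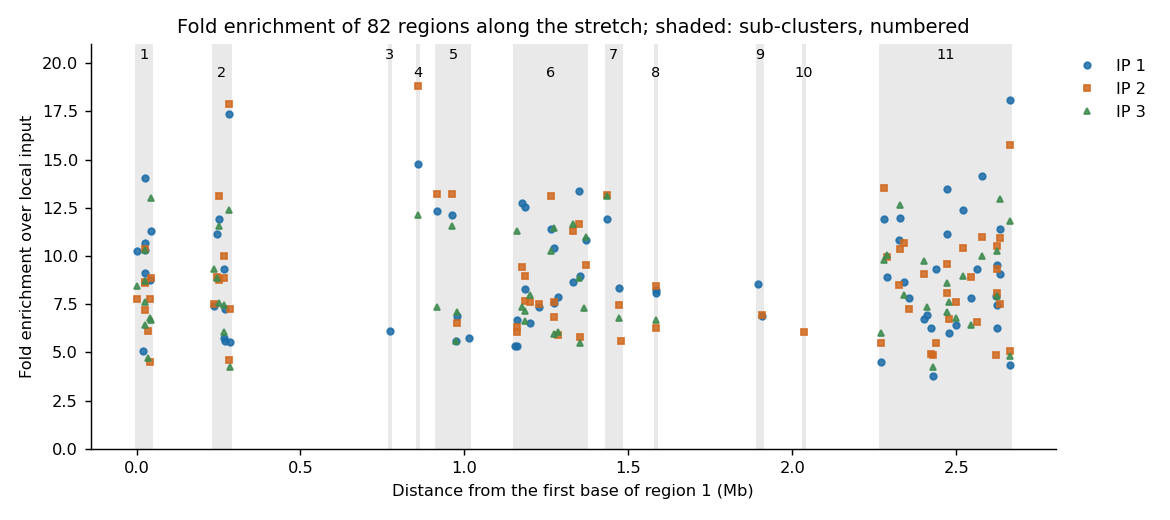
Fold enrichment over local input (linear axis) of each region in IP 1, IP 2 and IP 3 against distance in Mb from the first base of region 1, with sub-clusters 1 to 11 shaded and numbered, each shade slightly wider than its span. Most points crowd into the 5 large sub-clusters, and the others lie between these in small ones. The points above 15-fold belong to regions 21, 24 and 81.

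Of the 82 regions, 53 (64.6%, exact 95% Clopper-Pearson interval 53.3% to 74.9%, counting error only) had a peak in all 3 immunoprecipitations. The share over all 862 regions of the series was 30.5%. In the 780 regions elsewhere 210 (26.9%, 23.8% to 30.2%) did so. In a cluster on chromosome 17, the next largest, it was 13 of 16 regions, and in one on chromosome 5 it was 9 of 10. Both clusters were drawn around runs of regions found in all 3 lists. Their shares are therefore high by construction and are no measure for the stretch. A peak in at least 2 lists was found at 69 regions of the stretch, against 49% of regions in the whole series. The other 13 regions came from 1 list, 7 from IP 1, 4 from IP 2 and 2 from IP 3.

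Where exactly 2 lists had a peak, the missing one was mostly IP 3. Of the 16 such regions, 12 lacked IP 3, 2 lacked IP 2 and 2 lacked IP 1. Elsewhere in the genome 82 of 143 lacked IP 3. Several of these regions were not weak in the lists that held them. Region 58 (28611095 to 28611372) had a fold of 10.8 in IP 1 and 8.49 in IP 2, with pileups of 37 and 27 reads, and no peak in IP 3. Region 79 (28918765 to 28918964) had 9.05-fold in IP 1 and 7.49-fold in IP 2. IP 3 was also the shallowest library, and the part of depth in its missing peaks was not tested. Region 7 (26322707 to 26323172) joined peaks of IP 2 and IP 3 whose summits lay 228 bp apart, farther than in any region of the stretch found in all 3 lists.

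The 5 single-list regions with the highest fold reached 6.12 to 8.55. Region 52 (28180741 to 28180951) led them with 8.55-fold and a pileup of 29 reads in IP 1. Region 45 (27652458 to 27652636) had 7.32-fold in IP 3, region 19 (26556687 to 26556930) 7.24-fold in IP 1, region 11 (26331589 to 26331800) 6.68-fold in IP 3 and region 23 (27059479 to 27059641) 6.12-fold in IP 1. Region 52 alone of these 5 exceeded 7.53, the lower quartile of the mean folds of the 53 regions found in every list. Of those 53, 4 had a lower mean than region 23.

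Fold enrichment is the authors' ratio of the pileup at the summit, which is the number of extended reads stacked there, to the local input background, with 1 added to each. Over the 53 regions its median was 9.56 in IP 1 (range 3.77 to 18.1), 8.93 in IP 2 (4.88 to 18.8) and 8.45 in IP 3 (4.22 to 13.1). At the 210 regions of all lists elsewhere the medians were 8.47, 8.48 and 7.60. The stretch was thus higher at the median than these pooled regions in each of the 3. The difference was smaller than the spread of its own regions, whose mean folds had quartiles of 7.53 and 11.0. A high median was not particular to the stretch. The cluster on chromosome 17 had medians of 10.6, 9.64 and 9.52, above the stretch in each of the 3. The cluster on chromosome 5 had 9.91, 7.40 and 7.98, above it in IP 1 only. These folds come from the calls that chose the regions and were not tested. The stretch lacked the highest values. Its folds stopped at 18.8, while elsewhere they reached 28.0, 27.4 and 27.0 in IP 1, IP 2 and IP 3. The 2 other clusters lacked the highest values too. Their folds reached 14.1, 17.6 and 14.8 on chromosome 17 and 17.5, 18.3 and 10.9 on chromosome 5. The highest pileups among regions of all lists elsewhere, 140, 142 and 136 reads, compare with 59, 58 and 41 reads at the 53 regions here.

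The strongest region by mean was region 21 (26568956 to 26569248, sub-cluster 2). It showed 17.4-fold in IP 1, 17.9-fold in IP 2 and 12.4-fold in IP 3, a mean of 15.9 ± 3.05 (SD, n = 3), on pileups of 59, 58 and 38 reads. Region 24 (27144857 to 27145202), the only member of sub-cluster 4, had folds of 14.8, 18.8 and 12.1 and pileups of 40, 49 and 30 reads. IP 2 was the highest and IP 3 the lowest at both. Region 81 (28949322 to 28949665), near the far end of sub-cluster 11, had folds of 18.1, 15.8 and 11.8 and pileups of 54, 45 and 32 reads, with IP 1 highest and again IP 3 lowest. The means of these 3 regions, 15.9, 15.2 and 15.2, differed by less than their SDs of 3.05, 3.36 and 3.17. They were the only regions among the 10 highest of every immunoprecipitation.

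The next 7 regions had means between 11.7 and 12.7 and were steadier. Region 47 (27721119 to 27721370) had folds of 11.9, 13.2 and 13.1, a mean of 12.7 ± 0.72. Region 26 (27247975 to 27248238) had 12.1, 13.2 and 11.6, and region 14 (26537594 to 26537874) had 11.9, 13.1 and 11.6. In these 3 the values of the 3 immunoprecipitations lay within 1.69 of each other. Region 80 (28920934 to 28921228) had 11.4, 11.0 and 13.0, so that here IP 3 was highest. Region 56 (28565008 to 28565321) had 11.9, 13.5 and 9.78. Region 74 (28863821 to 28864190) had 14.1, 11.0 and 10.0. Region 59 (28615888 to 28616150) had 12.0, 10.4 and 12.6. Their order is not firm, since neighbouring means differed by less than their SDs of 0.72 to 2.15.

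Each immunoprecipitation had its own leading region. IP 1 was highest at region 81, IP 2 at region 24 and IP 3 at region 47. Folds of 12 or more were found at 12 regions in IP 1, 9 in IP 2 and 6 in IP 3. Only 3 regions were shared by the 10 highest of IP 1 and IP 3, against 6 for IP 2 and IP 3 and 4 for IP 1 and IP 2. Over the 53 regions IP 1 had the highest fold at 19, IP 2 at 19 and IP 3 at 15. IP 3 had the lowest at 28, IP 1 at 13 and IP 2 at 12. At the 10 strongest regions the fold of IP 3 was 0.854 of the mean of IP 1 and IP 2 at the median, and at the other 43 it was 0.882. For the 10 strongest regions elsewhere the ratio was 0.896.

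**Figure D3:**
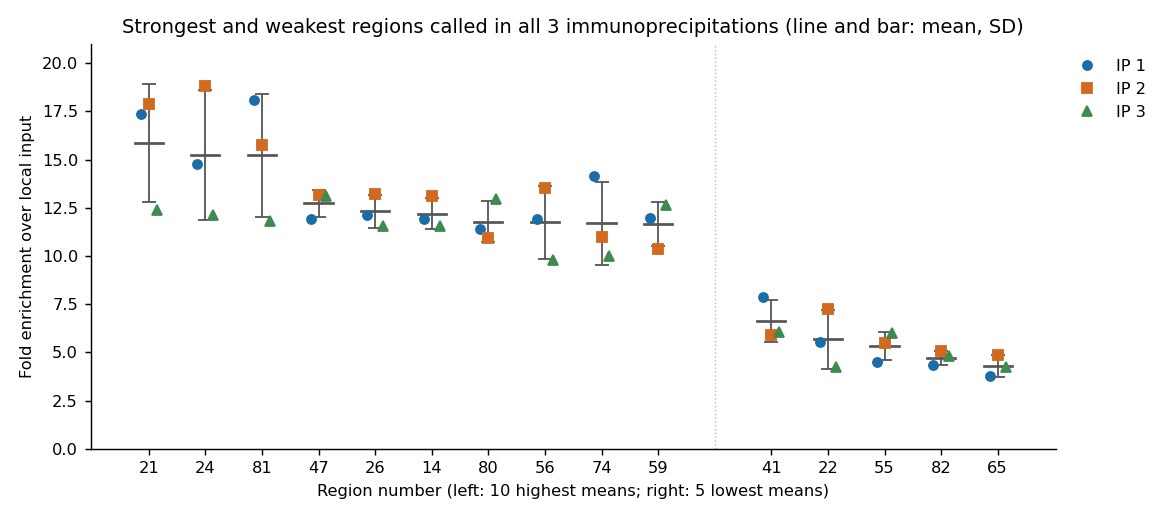
Fold enrichment over local input (linear axis) in IP 1, IP 2 and IP 3 at the 10 regions of highest and the 5 of lowest mean among the 53 called in every list, by region number, with the mean as a line and the SD as a bar (n = 3). IP 3 is the lowest point at regions 21, 24 and 81, and the 3 points nearly coincide at region 47.

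The 5 large sub-clusters did not differ much in strength. The median of mean folds over regions of all lists was 8.97 in sub-cluster 1, 8.45 in sub-cluster 2, 11.0 in sub-cluster 5 (3 regions), 9.12 in sub-cluster 6 and 9.10 in sub-cluster 11. Within each of them the means ran over a wider range, from 4.30 to 15.2 in sub-cluster 11 and from 5.67 to 15.9 in sub-cluster 2. Small sub-clusters with 1 or 2 regions of all lists had medians of 15.2 (sub-cluster 4), 10.1 (sub-cluster 7) and 7.01 (sub-cluster 8). The highest region of sub-cluster 1 was region 10 (26330467 to 26330721), with folds of 11.3, 8.87 and 13.0. That of sub-cluster 6 was region 38 (27551167 to 27551425), with 11.4, 13.1 and 10.3. Region 51 (27870584 to 27870843), the 1 region of sub-cluster 8 found in every list, had 8.06, 6.29 and 6.68. Strong regions thus lay at both ends of the stretch and in its middle, and next to weak ones.

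The weakest regions by fold were not the weakest by pileup. Region 65 (28715385 to 28715701) had the lowest mean fold, 4.30 ± 0.55, with 3.77, 4.88 and 4.25 in IP 1, IP 2 and IP 3. Its pileups of 28, 36 and 26 reads were near the medians of the stretch, 31, 30 and 26 reads. Its local input background was 6.69, 6.59 and 5.35 reads, the highest among the 53 regions. Region 22 (26571982 to 26572276) was of the same kind, with folds of 5.55, 7.24 and 4.22 on pileups of 37, 48 and 23 reads and backgrounds of 5.85, 5.77 and 4.68 reads. So were region 82 (28949858 to 28950155), at 4.32, 5.05 and 4.79-fold with backgrounds of 5.02, 4.94 and 4.01 reads, and region 55 (28557080 to 28557292), at 4.52, 5.47 and 5.99-fold with 5.85, 5.77 and 3.34 reads. Only region 41 (27573366 to 27573617) among the 5 lowest had both a low pileup, 23, 17 and 16 reads, and an ordinary background of 2.04, 2.04 and 1.80 reads. The backgrounds of a region in IP 1, IP 2 and IP 3 come from the same input and are not separate measurements. Background is also the denominator of fold, so choosing the lowest folds favours high backgrounds by construction.

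Backgrounds over the 53 regions had medians of 2.32, 2.43 and 2.03 reads, or 1.60, 1.78 and 1.60 times the genome average of each library. At regions of all lists elsewhere the multiples were 1.97, 1.88 and 2.10. The clusters on chromosomes 17 and 5 had higher multiples, 2.25, 2.42 and 2.16 on chromosome 17 and 2.30, 2.42 and 2.44 on chromosome 5. Pileups over the genome average were 21.4, 22.1 and 20.4 in the stretch, against 23.1, 22.1 and 20.4 elsewhere. They were 28.3, 30.9 and 29.0 in the cluster on chromosome 17 and 28.9, 22.1 and 26.7 in that on chromosome 5. The stretch therefore had folds above the rest at the median with pileups that were not above it and a lower input. The window that set the background was counted over all called peaks, whatever their number of lists. The local window of 10 kb set it at 6.76%, 4.23% and 6.78% of the peaks of the stretch in IP 1, IP 2 and IP 3. Elsewhere the shares were 17.7%, 14.6% and 17.2%. The window of 1 kb went the other way, with 50%, 46.5% and 44.1% in the stretch against 36.3%, 40.2% and 32.5% elsewhere.

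**Figure D4:**
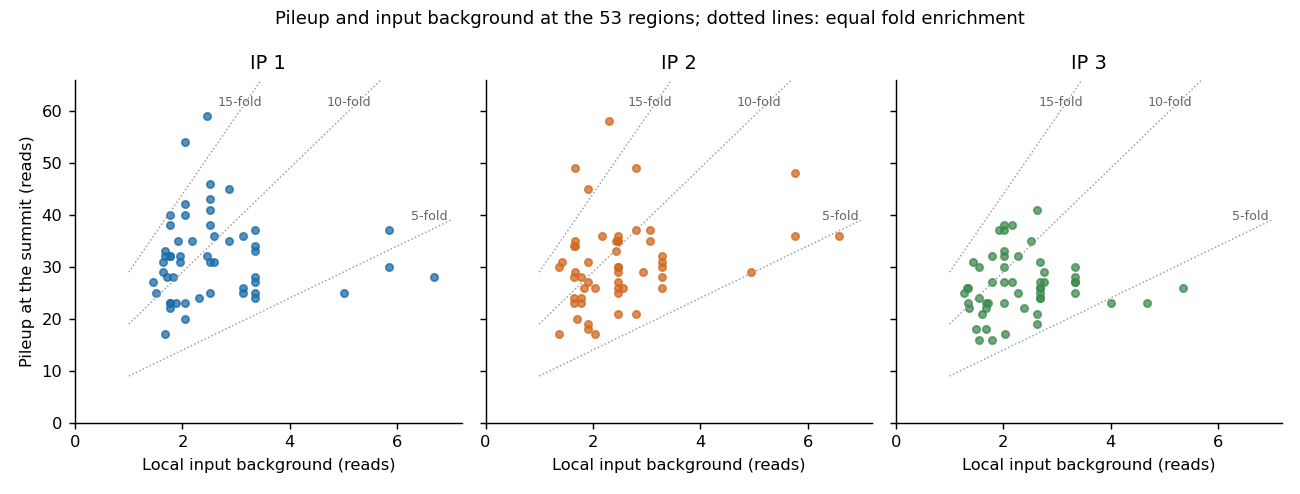
Pileup at the summit against local input background, both in reads, for the 53 regions called in every list, with 1 panel per immunoprecipitation and dotted lines of equal fold enrichment. Points at backgrounds of 4 reads or more lie below the 10-fold line.

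The 3 immunoprecipitations differed in the size of the fold at single regions. The coefficient of variation of fold over the 3 ran from 4.33% to 34.3% with a median of 15.5%, against 15.4% elsewhere. Region 31 (27446507 to 27446774) varied most, with 6.68 and 6.34-fold in IP 1 and IP 2 and 11.3-fold in IP 3. Region 34 (27470685 to 27471022) had 12.5-fold in IP 1 and 7.68 and 7.14-fold in the others. At region 25 (27203167 to 27203432) IP 3 stood low, at 7.35-fold against 12.4 and 13.2, and at region 44 (27640140 to 27640398) and region 33 (27463468 to 27463756) IP 1 stood high, at 8.95 against 5.78 and 5.50 and at 12.7 against 9.44 and 7.35. The odd value thus came from different immunoprecipitations. Both pileup and background took part in some of them. In region 31 the pileup was 28, 21 and 33 reads and the background 3.34, 2.47 and 2.01 reads.

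Across the 53 regions, Spearman's rho of fold was 0.72 for IP 1 with IP 2, 0.57 for IP 1 with IP 3 and 0.64 for IP 2 with IP 3. For pileup it was 0.45, 0.42 and 0.43, against 0.79, 0.79 and 0.76 at the 210 regions elsewhere, where pileups spread over a wider range. For background it was 0.83, 0.75 and 0.78. These are descriptions across regions, which are not independent, and the 3 folds share the 1 input. In the stretch the folds thus followed each other more closely than the pileups did, and the shared backgrounds followed each other most closely. At the 210 regions elsewhere rho of fold was 0.70, 0.73 and 0.68. There the pileups followed each other more closely than the folds did.

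Summit positions were not used to choose the stretch. The 3 summits of a region lay within a range of 4 to 92 bp, with a median of 37 bp. They lay within 50 bp at 33 of the 53 regions (62.3%, exact 95% interval 47.9% to 75.2%). The share over all 263 regions of all lists was 62.7%, so the stretch was near the background. The range was at most 92 bp at these 53 regions and reached 544 bp at those elsewhere, where 195 of 210 regions lay within 100 bp. At region 81 the summits were 28949487, 28949491 and 28949487, and at region 59 they were 28616028, 28616021 and 28616028. The ranges of 4 and 7 bp at these 2 strong regions are short beside the peak widths, whose medians were 241, 231 and 244 bp. Peaks had to overlap to be merged, which in itself limits how far apart the summits of a region can lie. Strength and agreement did not always go together. Region 14, with a mean fold of 12.2, had a summit range of 76 bp. The 10 highest means also included regions 47, 24, 21 and 56, with ranges of 18, 20, 24 and 28 bp. Regions 26, 80 and 74, of the same 10, had 55, 55 and 60 bp.

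The widest ranges were 92 bp at region 35 (27471416 to 27471730), 89 bp at region 3 (26311373 to 26311590), 84 bp at region 39 (27559522 to 27559750), 84 bp at region 46 (27655876 to 27656191) and 77 bp at region 34. No immunoprecipitation was shifted to a side by much. The summit of IP 2 lay a median of 10 bp to the right of that of IP 1, that of IP 3 a median of 4 bp to the right of IP 1 and 1 bp to the right of IP 2. IP 2 lay to the right of IP 1 at 32 regions and to the left at 21. The median distance between 2 summits, whatever its sign, was 25, 25 and 24 bp for the 3 pairs.

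**Figure D5:**
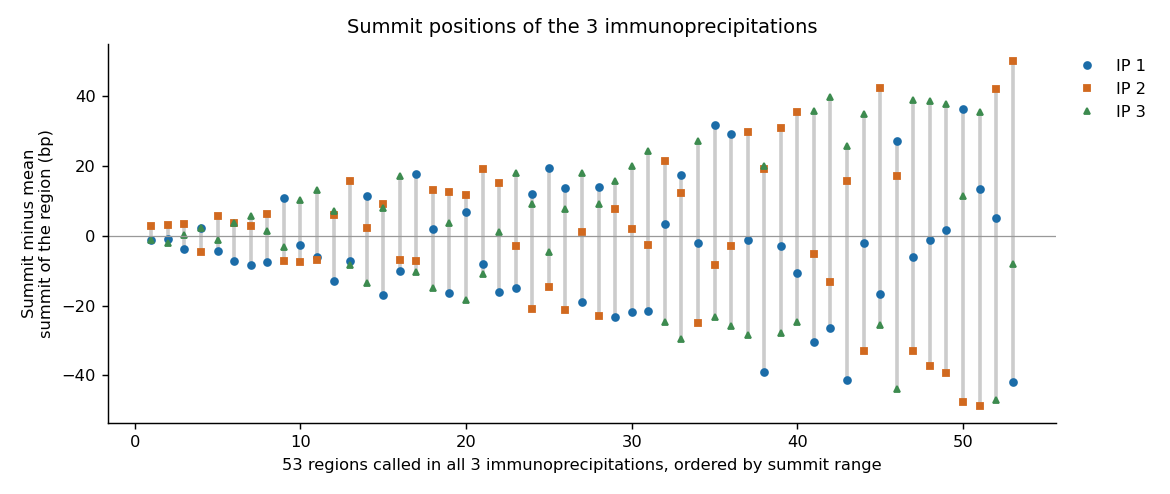
Summit of IP 1, IP 2 and IP 3 minus the mean summit of the region, in bp, for the 53 regions called in every list, ordered by summit range, with grey lines for the range. The range grows from 4 to 92 bp, and each immunoprecipitation appears on both sides of 0.

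Some regions of the stretch had close neighbours. In all, 31 of the 82 regions had another within 1 kb. The same count was not made for the regions elsewhere, so this is a description only. The tightest series was in sub-cluster 1, where regions 3, 4, 5 and 6 followed each other between 26311373 and 26313560 with gaps of 300, 472 and 189 bp. All 4 were found in every list. Their folds were 10.7, 8.61 and 7.61 at region 3, with means of 8.35 at region 4, 9.04 at region 5 and 11.0 at region 6. Their mean summits were 564, 856 and 532 bp apart, which is more than the width of any of the 4 regions.

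Neighbours this close could differ in strength. Regions 81 and 82, separated by 192 bp, had mean folds of 15.2 ± 3.17 and 4.72 ± 0.37, and region 81 was higher in all 3 immunoprecipitations. Their pileups were 54, 45 and 32 reads against 25, 29 and 23 reads, and the input background was the higher one at region 82. Region 21 had folds of 12.4 to 17.9, while region 20 (26568345 to 26568609), 346 bp before it, had a peak in IP 2 alone at 4.61-fold on 15 reads. That peak had the lowest −log10 q of the peaks of IP 2 in the stretch, 3.49, and region 21 had the highest, 53.2. Other pairs were alike. Regions 16 (26553624 to 26553874) and 17 (26554251 to 26554515), 376 bp apart, had means of 8.45 ± 2.10 and 7.36 ± 1.55, and regions 50 and 51, 174 bp apart, had 8.34 over 2 lists and 7.01 over 3.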

How the data were processed

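Peak lists of 3 anti-HA immunoprecipitations were analysed. The input has no list. Peaks were called by the authors in each immunoprecipitation against the same input, per the file headers, with duplicates removed, extensions of 163, 155 and 179 bp and a q threshold of 0.05. Per the submitters' processing notes, tools included Bowtie2 2.3.3.1 and MACS2 2.1.1.20160309, and the build was hg19. The handling of multiply aligned reads is not given in the sources used. The deposited pileup is a signal in reads, the deposited fold enrichment a ratio, and the deposited significance −log10 of a p-value or q-value.

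Lists were merged with Python 3.11.15 and pandas 2.3.3 (overlap of 1 bp or more), checked on simulated lists. The simulated sites lay too far apart to touch, so the merging of close neighbours was not checked. Background was recovered as pileup plus 1, over fold, minus 1. The window that set it was read from whole input reads (tolerance at least 0.0002 reads). Genome averages are tags times extension over genome size.

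The stretch and its lists were chosen with earlier results of these data known. Regions described singly follow a written rule: the 10 highest and 5 lowest mean folds, the 5 widest summit ranges, the 5 highest coefficients of variation, the highest region of each sub-cluster and the 5 strongest single-list regions. Close pairs, regions 7, 58 and 79, and the top regions per immunoprecipitation were added after values were seen. A planned permutation test of fold over the 3 immunoprecipitations was not made, because the rule used the same contrast. Planned gene and motif counts were not run, since they need hg19 positions or sequence. PCR reads are not independent molecules, and intervals cover counting error only. Nothing in the labels names separate cultures, so SDs measure the spread between immunoprecipitations.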

Additional observations from a re-analysis of the deposited data

How the results depend on the processing

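The 53 regions of all lists became 36 at a −log10 q of at least 10 and lay between 55 and 65 without 1 immunoprecipitation, when only the others had to hold a peak. A fold of at least 4 gave 52 and a reciprocal overlap of 50% gave 53. Their share, 64.6%, fell to 52.2% at the stricter q and was 70.5% to 81.2% with 1 immunoprecipitation left out. Their median fold, 9.04, was 10.5 at the stricter q and 8.41 to 8.99 with 1 left out. The median summit range, 37 bp, was 23 to 25 bp with 1 left out, as a range over fewer summits must be no wider. The number of sub-clusters, 11, became 22 at a joining distance of 25 kb, 8 at 100 kb and 10 with regions of all lists only, and was 10 to 11 with 1 immunoprecipitation left out. Counts at tRNA genes and of B box and SOX core matches, with their alternatives, could not be made without hg19 positions. No paired analysis was possible because immunoprecipitations form a single group and the input carries no number to match them. The lowest pileups of called peaks in the stretch were 14, 15 and 16 reads in IP 1, IP 2 and IP 3, and a missing peak does not show that SOX4 was absent.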
